A study of Mus musculus with 54 samples.

Results

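The genes described here are 35 mouse genes whose proteins repair DNA, listed by name for their known roles; the rule that lists them uses no measured value. They are 35 of the 53379 gene identifiers counted in each library, and every one of them was matched. By known role 14 belong to homologous recombination, 5 to the Fanconi anaemia pathway, 2 to ubiquitin signalling at broken DNA, 5 to non-homologous end joining, 1 to end joining by polymerase theta, 5 to base excision and single-strand break repair, 1 to mismatch repair and 2 to nucleotide excision repair.

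RNA was measured in bulk by sequencing in mouse cerebellar tumours and in normal cerebellum, 5 h after 1 Gy of radiation or a sham treatment. BL6 stands for the normal tissue, from C57BL/6 mice. One tumour model is the strain labelled SmoA1 homo, which carries a transgene for an activated Smoothened receptor. In the widely used SmoA1 line the Neurod2 promoter drives the transgene in granule neurons and their precursors, but the labels name no promoter. The other model is labelled Ptc het on a C57BL/6 strain and has 1 inactive copy of Ptch1 in every cell, the gene of the receptor that holds Smoothened inactive. Each of the 6 groups holds 3 libraries from numbered samples: 1, 2 and 3 for BL6 sham, 2, 3 and 4 for BL6 1 Gy, 1, 2 and 4 for SmoA1 sham, and 1, 2 and 3 for SmoA1 1 Gy, Ptc sham and Ptc 1 Gy. Values below follow that order. Ages are not given. Nothing in the labels says that a sample number stands for an animal of its own, so the p-values rest on the spread between numbered samples, which may be partly technical.

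Homologous recombination repairs a broken chromosome from the intact sister copy, so it acts in cells that are copying or have copied their DNA. The Fanconi anaemia proteins clear crosslinks that block the replication fork and hand the resulting break to recombination. Non-homologous end joining rejoins ends directly and serves dividing and resting cells alike, while base excision and single-strand break repair deal with oxidised bases and nicks. Granule neuron precursors, the cells from which Sonic hedgehog tumours of the cerebellum arise, divide rapidly, whereas most neurons of the mature cerebellum have left the cell cycle.

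Library type set limits on what could be compared. The 12 BL6 and SmoA1 libraries held 540652 to 842997 counts in genes and the 6 Ptc libraries 34124031 to 51330146. In the former 70.4% to 75% of the uniquely mapped reads lay over no annotated exon, against 12.5% to 14.3% in the latter. Of the counts split by strand, the larger strand held 50.4% to 50.9% in the former and 94.4% to 95% in the latter. What these shares do to the fold changes was not tested. Levels are given as CPM, each gene's share of its library's counts scaled to a common depth, scaled over the 12 BL6 and SmoA1 libraries together and over the 6 Ptc libraries together, and a level on one scale was not compared with a level on the other. Summed CPM of 4 Y-linked genes was 370 to 460 in BL6 1 Gy samples 2 and 4, SmoA1 sham sample 2 and SmoA1 1 Gy sample 1, and at most 38.2 in the other 8 BL6 and SmoA1 libraries. In Ptc it was 277 in 1 Gy sample 1 and at most 0.0305 elsewhere. One library went against its tumour label in its cell division genes. In Ptc sham sample 2 the summed CPM of 20 cell division genes was 322.1, against 3582 and 2596 in the other Ptc sham samples, while 11 genes of mature granule neurons summed to 7996 against 638.1 and 2525. Its 8 Purkinje neuron genes summed to 8611 CPM against 227.2 and 1928. Ptc 1 Gy sample 1 also had mature granule neuron genes at 4857 CPM, against 469.4 and 686.6 in the other irradiated Ptc samples. Ptc 1 Gy sample 2 was apart in other lists. Its 12 granule neuron progenitor genes summed to 2208 CPM, against 5575 and 5735 in the other irradiated samples and 2258 in Ptc sham sample 2. Its 11 microglia and macrophage genes summed to 2387 CPM against 351.8 and 1297, while its cell division genes, at 3579 CPM, were not low.

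Without radiation, 13 of the 35 repair genes were higher in SmoA1 tumours than in BL6 cerebellum and 0 were lower, at an adjusted p under 0.05 in edgeR's quasi-likelihood test. They were Exo1, Brip1, Fancd2, Brca1, Fanci, Bard1, Fanca, Rad51b, Brca2, Polq, Parp2, Xrcc3 and Xrcc2, with folds between 1.43 for Brca2 and 6.60 for Brip1. Over all 16428 genes tested, 7.07% were called higher and 9.4% lower. The median log2 fold change of the 35 genes was 0.31, against 0.009 over all genes, and 29 of the 35 values were positive. Of the called genes, 11 were among the 19 of homologous recombination and the Fanconi pathway, and 2 were among the 16 others. A filter on low counts applied to BL6 alone would have kept 33 of the 35, all but Brip1 and Rad51b, and 11 of those 33 were called.

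These are bulk samples, so fewer cells of a type and less RNA per cell cannot be told apart. The 20 cell division genes summed to 1881 to 2095 CPM in SmoA1 sham and 557.5 to 735.7 CPM in BL6 sham, with 18 of the 20 called higher and none at 0 in a library. The 21 genes of S phase, the phase of DNA copying, summed to 1472 to 1707 CPM against 896.6 to 927.6, with 14 called higher. Genes of mature granule neurons summed to 634.6 to 793.3 CPM against 983.4 to 1181, with 10 of 11 called lower, and those of Purkinje neurons to 495.3 to 515.1 CPM against 761.6 to 924.5, with 5 of the 7 tested called lower. Genes of inhibitory interneurons summed to 301.4 to 335.1 CPM against 650.7 to 717.2, with 7 of the 7 tested called lower. The part of these differences in the repair gene levels was not tested.

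**Figure D1:**
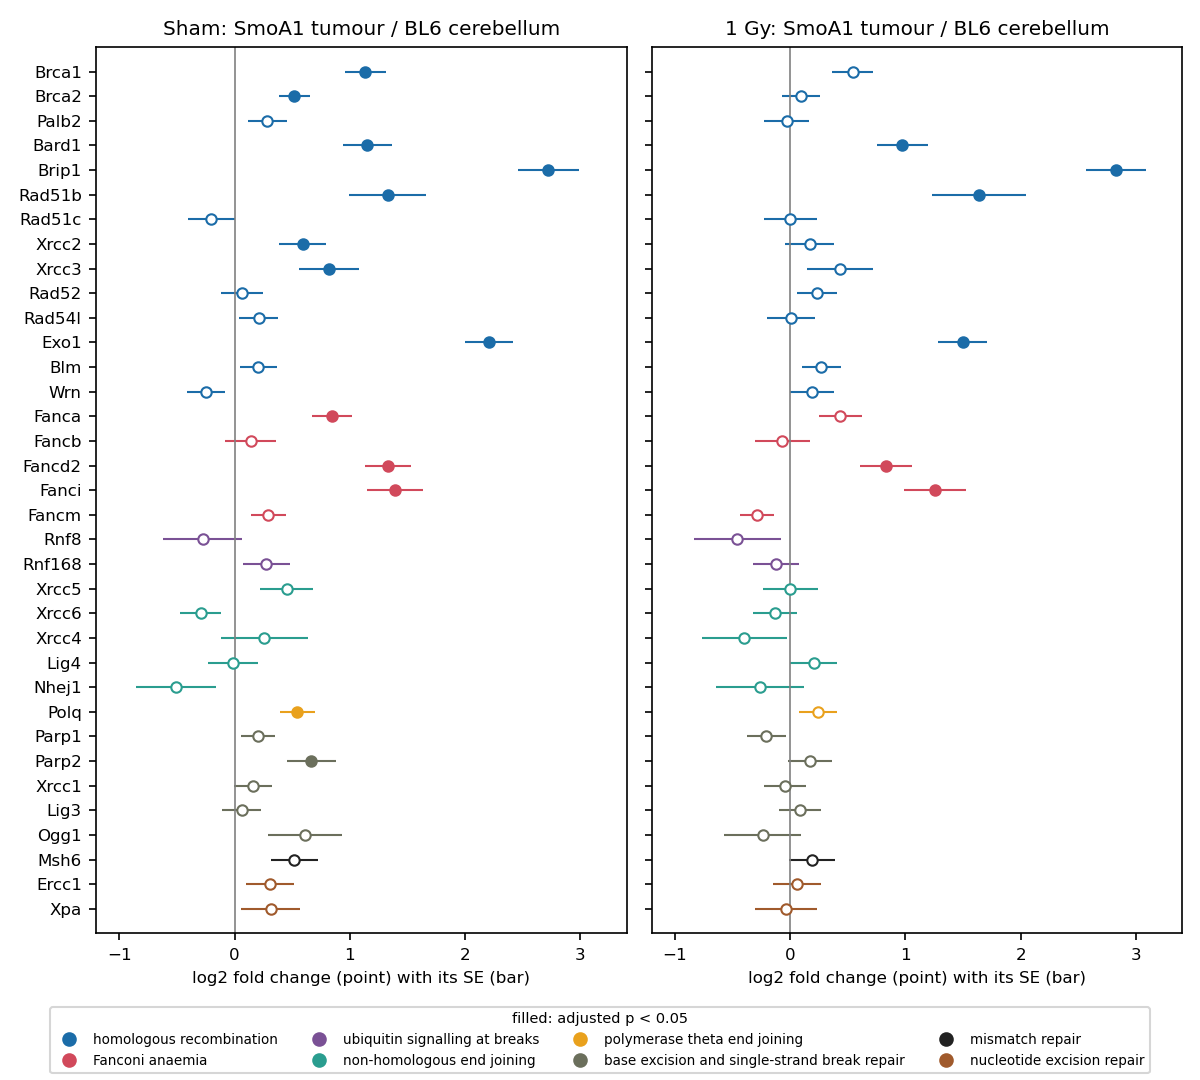
The plots of log2 fold change (x axis, bars ± SE) compare SmoA1 with BL6 for the 35 repair genes (y axis, coloured by pathway), in sham mice and after 1 Gy; filled points passed an adjusted p of 0.05. In sham mice the 13 filled points all lie to the right of 0 and 11 of them belong to homologous recombination or the Fanconi pathway, and after 1 Gy 6 points are filled.

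The largest fold changes were those of Exo1 and Brip1, both of homologous recombination. In what follows the levels of the first group named come first, and a value with ± is a log2 fold change with its SE. Exo1, the exonuclease that trims the broken end to a single strand (chr1:175880581-175913489, plus strand, GRCm38), was at 22.2, 24.6 and 24.9 CPM in BL6 sham and at 96.4, 121 and 114 CPM in SmoA1 sham. The groups lie far apart, every tumour library exceeding every normal one, with a log2 fold change of 2.21 ± 0.21 and an adjusted p of 5.81e-08. Brip1, a helicase that binds Brca1 (chr11:86058138-86201193, minus strand), was at 14.8, 10.8 and 10.7 CPM in BL6 and 86, 85.2 and 68.5 CPM in SmoA1. It did not overlap between the groups and rose by 2.72 ± 0.26 on the log2 scale (adjusted p 9.55e-08). Its BL6 sham levels rest on counts of only 8, 7 and 6, and those of Rad51b, below, on 8, 7 and 8.

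Brca1, which promotes the resection of broken ends (chr11:101488764-101551955, minus strand), was at 61, 47.6 and 72.8 CPM in BL6 and 159, 117 and 121 CPM in SmoA1. SmoA1 sample 1 was the highest, no tumour library reached down to the normal range, and the log2 fold change was 1.14 ± 0.18 (adjusted p 5.52e-05). Bard1, the partner with which Brca1 forms a ubiquitin ligase, was at 33.3, 29.2 and 28.4 CPM and 69.7, 62.3 and 69.8 CPM in the same order. The 3 libraries of each group were close together and apart from the other group, with a log2 fold change of 1.15 ± 0.21 (adjusted p 3.68e-04). Brca2, a mediator of strand exchange, was at 137, 151 and 108 CPM in BL6 and 171, 205 and 191 CPM in SmoA1. The tumour libraries were all higher but the nearest libraries of the 2 groups were at 150.5 and 170.5 CPM, for a log2 fold change of 0.52 ± 0.13 (adjusted p 0.00768). Without BL6 sham sample 3 its adjusted p was 0.0864.

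Rad51b, Rad51c, Xrcc2 and Xrcc3, which act together in complexes during recombination, differed in their results. Rad51b was at 14.8, 10.8 and 14.2 CPM in BL6 and 35.6, 30.5 and 33.6 CPM in SmoA1, without overlap, and rose by 1.33 ± 0.33 on the log2 scale (adjusted p 0.00605). Xrcc3 was at 18.5, 29.2 and 40.8 CPM and 51.9, 44.5 and 60.4 CPM, with BL6 sample 3 close below the tumour range and a log2 fold change of 0.82 ± 0.26 (adjusted p 0.0295). Xrcc2 was at 44.4, 49.1 and 51.5 CPM and 89, 69.95 and 60.4 CPM, without overlap and with SmoA1 sample 1 the highest, for 0.59 ± 0.20 (adjusted p 0.0467). Both last calls rest on single libraries. Xrcc3 missed the threshold without BL6 sample 1, BL6 sample 2 or SmoA1 sample 4, with adjusted p values of 0.0851 to 0.158. Xrcc2 missed it without any 1 of BL6 samples 1, 2 and 3 or SmoA1 samples 1 and 2, with 0.0553 to 0.172. Rad51c, the last of these, was at 55.5, 56.8 and 62.1 CPM in BL6 and 57.8, 52.2 and 41.6 CPM in SmoA1, overlapping, with a log2 fold change of -0.20 that did not pass.

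The other 5 genes of homologous recombination did not pass, with log2 fold changes from -0.25 to 0.28. They were Palb2, the bridge between Brca1 and Brca2, at 0.28, the RecQ helicases Blm at 0.21 and Wrn at -0.25, the motor protein Rad54l at 0.21 and Rad52, which anneals single strands, at 0.06. Palb2 is a case of values that do not overlap but did not pass, at 72.1, 66 and 76.3 CPM in BL6 and 84.5, 92.8 and 81.9 CPM in SmoA1. Wrn, and Nhej1 of end joining, were lower in SmoA1 without overlap and did not pass either. Of the 35 genes 16 were higher without overlap and 2 lower, against 15% and 16.2% of all genes.

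In the Fanconi pathway 3 of 5 genes were called. Fancd2 and Fanci form the clamp that closes on DNA once ubiquitin is attached to it, and both were higher in the tumour. Fancd2 (chr6:113531682-113597017, plus strand) was at 37, 35.3 and 33.7 CPM in BL6 and 80.1, 97.9 and 87.3 CPM in SmoA1, a log2 fold change of 1.33 ± 0.20 (adjusted p 2.57e-05). Fanci was at 22.2, 21.5 and 23.1 CPM and 53.4, 62.3 and 59.1 CPM, a log2 fold change of 1.39 ± 0.24 (adjusted p 1.61e-04). For both partners the lowest tumour library had at least 2 times the level of the highest normal one. Fanca, a scaffold of the core complex that attaches the ubiquitin, was at 53.6, 56.8 and 60.3 CPM and 89, 104 and 112 CPM, also without overlap, with 0.84 ± 0.17 (adjusted p 0.00103). Fancb, another core subunit, and Fancm, the translocase that carries the core complex to stalled forks, had log2 fold changes of 0.14 and 0.29 with overlapping groups and did not pass.

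**Figure D2:**
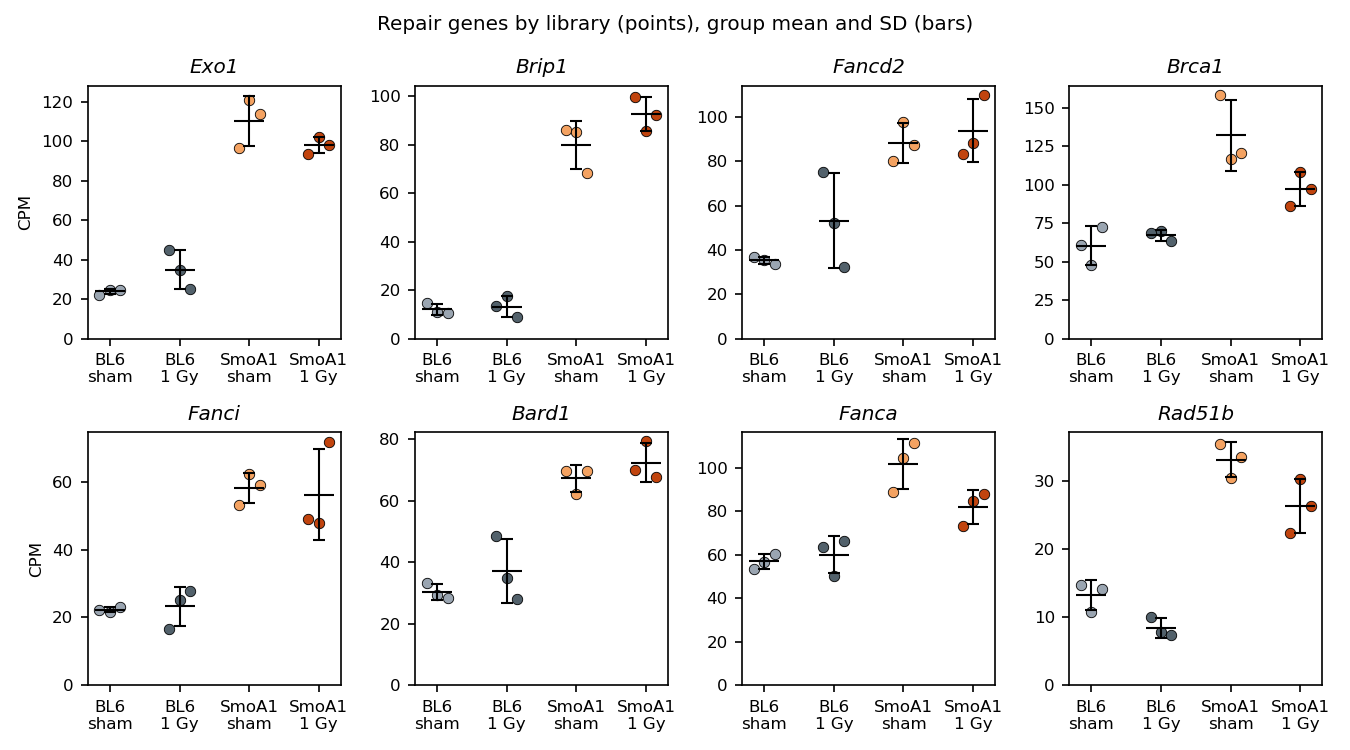
The level in CPM (y axis) of the 8 repair genes with the smallest p in SmoA1 sham against BL6 sham is plotted for each of the 12 BL6 and SmoA1 libraries, with the group mean and SD as bars. In every panel the 3 SmoA1 sham libraries lie above the 3 BL6 sham libraries, whereas after 1 Gy Brip1 has the widest gap between tumour and normal tissue.

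Outside these pathways the called genes were Polq and Parp2. Polq, the polymerase that joins ends at short matching stretches, was at 88.7, 79.9 and 115 CPM in BL6 and 125, 141 and 144 CPM in SmoA1. The groups came close but did not overlap, with 0.54 ± 0.15 (adjusted p 0.0124), and the call was lost without BL6 sample 1 (0.0538) or sample 2 (0.110). Parp2, which marks strand breaks with poly(ADP-ribose), was at 57.3, 64.5 and 31.9 CPM and 71.2, 87.8 and 85.9 CPM, with 0.67 ± 0.21 (adjusted p 0.0294). BL6 sample 3 was low, and without it the adjusted p was 0.224 and without SmoA1 sample 2 it was 0.0715.

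The larger relative of Parp2, Parp1, was at 113, 106 and 97.6 CPM in BL6 and 108, 111 and 144 CPM in SmoA1, overlapping, with 0.20 ± 0.15, which did not pass. The other genes of base excision and single-strand break repair did not pass either. Their log2 fold changes were 0.61 for Ogg1, which removes oxidised guanine, 0.16 for the scaffold Xrcc1 and 0.06 for its ligase Lig3. Of the exonic bases of Lig3, 25.1% overlap another gene, and the counts used do not separate strands, so its level is uncertain. The same holds for the called genes Fanci, with 16% of its exonic bases shared with Polg, and Fanca, with 10.5% shared with Zfp276. It holds too for Rad54l, with 15.4%, Rnf8, with 13.2%, and Ogg1, with 10.6%.

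None of the 5 genes of end joining by Ku and ligase IV was called, and they lay on both sides of 0. The Ku subunits were at 0.45 for Xrcc5 and -0.29 for Xrcc6, the ligase Lig4 at -0.01, its partner Xrcc4 at 0.26 and the bridging factor Nhej1 at -0.51, all on the log2 scale. Xrcc5, with the smallest p of them, was at 44.4, 32.3 and 55 CPM in BL6 and 46, 66.1 and 64.5 CPM in SmoA1, overlapping (adjusted p 0.203). Rnf168 and Rnf8, the ligases that ubiquitinate histones beside a break, had log2 fold changes of 0.27 ± 0.20 (adjusted p 0.427) and -0.28 ± 0.34. Rnf168 was at 55.5, 53.8 and 69.2 CPM and 53.4, 71.2 and 88.6 CPM and Rnf8 at 29.6, 23 and 30.2 CPM and 14.8, 34.3 and 17.5 CPM, so both overlapped.

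In mismatch repair Msh6, a subunit of the protein that recognises mispaired bases, was at 40.7, 49.1 and 62.1 CPM in BL6 and 72.7, 81.4 and 63.1 CPM in SmoA1. All tumour libraries exceeded all normal ones, the nearest by a narrow margin, and the log2 fold change of 0.52 ± 0.20 did not pass (adjusted p 0.0819). Without SmoA1 sample 4 it did, at 0.0377. In nucleotide excision repair Ercc1, a subunit of the nuclease that cuts beside the lesion, was at 57.3, 39.9 and 58.6 CPM and 59.3, 71.2 and 59.1 CPM, with 0.31 ± 0.21 (adjusted p 0.365). Xpa, which verifies the lesion, had a log2 fold change of 0.31, and neither passed.

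Promoter sequence was available from the RefSeq table (GRCm38.p6) for 31 of the 35 genes. Exo1, Fancd2, Wrn and Xrcc2 have no entry. The window ran from 250 bases before the start to 50 after it, and both strands were searched for an E2F motif, the site of the factors that switch on genes for DNA copying, spelled TTTGGCGC, TTTCGCGC, TTTGCCGC or TTTCCCGC. A gene was counted once if any of its promoters held the motif. The E2F motif was found in 5 of the 31 genes (16.1%), Bard1, Brca2, Rad51c, Xrcc6 and Msh6, and in 704 of 27025 genes in the whole table (2.6%). By whether the gene was called in SmoA1 sham against BL6 sham, 2 of 10 called genes (20%) and 3 of 21 others (14.3%) held it. The stretches around the motif, in capitals, are shown for Bard1 and Brca2 because they are the called genes that have one. The first is chr1:71103134-71103221 on the minus strand, with the motif 209 bases before the start, and the second is chr5:150522413-150522500 on the plus strand, with the motif on the reverse strand 168 bases before the start. Both are written 5′ to 3′ along the gene.
Bard1: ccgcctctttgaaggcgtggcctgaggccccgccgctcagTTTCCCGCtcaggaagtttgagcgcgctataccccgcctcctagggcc
Brca2: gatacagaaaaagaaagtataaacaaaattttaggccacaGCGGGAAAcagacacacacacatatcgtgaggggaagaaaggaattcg
The cell cycle homology region, spelled TTTGAA, was found in 4 of the 31 (12.9%) against 20.2% of all genes in the table, and by call in 3 of 10 (30%) and 1 of 21 (4.76%). The CCAAT box, spelled CCAAT, was in 17 of 31 (54.8%) against 41.1%, and by call in 5 of 10 (50%) and 12 of 21 (57.1%). A match is a run of letters, and binding was not measured.

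A further 96 repair genes of the same pathways were listed beside the 35, and 92 of them were tested in sham mice. Of these 9 were higher in SmoA1 and 0 lower, against 7.07% and 9.4% of all genes, with a median log2 fold change of 0.12. The 4 with the smallest p were Neil3, Gen1, Ung and Lig1. Neil3, a glycosylase that opens crosslinks at replication forks, was at 3.70, 6.14 and 0 CPM in BL6 and 53.4, 48.3 and 56.4 CPM in SmoA1, with 3.88 ± 0.44 (adjusted p 8.16e-07), and was counted at low levels or 0 in normal cerebellum. It passed the low-count filter only with the tumour libraries, and applied to BL6 alone the filter kept 90 of the further genes. Gen1, which cuts the crossed strands left by recombination, was at 46.2, 44.5 and 33.7 CPM and 104, 104 and 99.4 CPM, with 1.3 ± 0.19 (adjusted p 1.60e-05). Ung, which removes uracil from DNA, was at 35.1, 35.3 and 46.1 CPM and 78.6, 90.3 and 102 CPM, with 1.23 ± 0.20 (adjusted p 7.57e-05). Lig1, the ligase of lagging-strand synthesis, was at 53.6, 66 and 51.5 CPM and 97.9, 109 and 114 CPM, with 0.90 ± 0.17 (adjusted p 4.43e-04), and none of the 4 overlapped.

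Between irradiated SmoA1 tumours and irradiated BL6 cerebellum, 6 of the 35 genes were higher and 0 lower, against 4.33% and 2.58% of all 16990 genes tested. They were Brip1, Exo1, Fanci, Bard1, Rad51b and Fancd2, and each had also been called in sham mice, in other libraries. Brip1 and Rad51b passed the low-count filter only with the tumour libraries, and without them 4 of 33 were called. Their irradiated BL6 levels rest on counts of 8, 9 and 6 for Brip1 and 6, 4 and 5 for Rad51b. The median log2 fold change of the 35 was 0.09, against -0.009 over all genes, and 12 of the 35 values were negative. The cell division genes summed to 1549 to 1821 CPM in SmoA1 and 697 to 859.8 CPM in BL6, with 12 of 20 called higher, and the S phase genes to 1045 to 1269 CPM and 922 to 948.3 CPM, with 1 of 21 called. Their part in the repair gene values was not tested. Brip1 was at 13.4, 17.4 and 8.82 CPM in BL6 and 99.8, 85.9 and 92.5 CPM in SmoA1, with 2.83 ± 0.26 (adjusted p 1.06e-07), next to 2.72 ± 0.26 in sham mice. Exo1 was at 45.1, 34.9 and 25 CPM and 93.8, 102 and 98.4 CPM, still without overlap, with 1.5 ± 0.21 (adjusted p 2.79e-05).

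Fanci was at 16.7, 25.2 and 27.9 CPM in irradiated BL6 and 49.1, 48 and 72 CPM in irradiated SmoA1, with 1.26 ± 0.27 (adjusted p 0.00306). Bard1 was at 48.4, 34.9 and 27.9 CPM and 69.99, 79.6 and 67.6 CPM, with 0.97 ± 0.22 (adjusted p 0.00539). In both the normal libraries spread more than in sham mice without reaching the tumour range. Rad51b was at 10.02, 7.74 and 7.35 CPM and 22.3, 30.3 and 26.4 CPM, with 1.64 ± 0.41 (adjusted p 0.0103), and missed the threshold without SmoA1 1 Gy sample 2 (0.0694). Fancd2 was at 75.1, 52.3 and 32.4 CPM and 83.4, 88.4 and 110 CPM, with 0.83 ± 0.23 (adjusted p 0.0205). BL6 sample 2 was high and close to the tumour range, and the call was lost without BL6 sample 3 (0.0841), BL6 sample 4 (0.157) or SmoA1 sample 3 (0.129).

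Brca1, at 68.5, 69.7 and 63.2 CPM in irradiated BL6 and 86.4, 109 and 96.9 CPM in irradiated SmoA1, did not overlap but had 0.54 ± 0.18 and an adjusted p of 0.0626. Of the other listed repair genes 3 of 92 were higher after 1 Gy and 0 were lower, against 4.33% and 2.58% of all genes. They were Gen1, Neil3 and Eme1, a subunit of a junction-cutting nuclease. Gen1 was at 50.1, 44.5 and 27.9 CPM and 90.8, 92.2 and 104 CPM and Neil3 at 11.7, 5.81 and 5.88 CPM and 41.7, 30.3 and 48.5 CPM, both without overlap. Eme1 was at 11.7, 15.5 and 4.41 CPM and 23.8, 32.8 and 38.2 CPM, and its call was lost without BL6 sample 4 or SmoA1 sample 3. Neil3 and Eme1 passed the low-count filter only with the tumour libraries.

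None of the 35 genes passed the threshold between 1 Gy and sham within any of the tissues. In BL6 0 of 33 tested genes were called in edgeR's quasi-likelihood test, in SmoA1 0 of 35 and in Ptc 0 of 35. Over all genes the shares called were 0.0126% in BL6, 2.17% in SmoA1 and 0% in Ptc. DESeq2 also called 0 repair genes in each tissue. Over all genes DESeq2 called 1 higher and 0 lower of 15918 in BL6 and 209 and 16 of 16690 in SmoA1. In Ptc it called 211 and 110 of 19571. At an unadjusted p under 0.05, 2 repair genes stood in BL6, 6 in SmoA1 and 1 in Ptc, against 3.98%, 14.1% and 7.26% of all genes. With no gene called in Ptc by edgeR, the 0 there says nothing about whether the repair genes changed. Brip1 and Rad51b were too low to be tested in BL6.

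In BL6 cerebellum the median log2 change of the 33 genes after 1 Gy was 0.06 and 22 were positive. Wrn was at 85, 101 and 92.3 CPM in sham and 65.1, 73.6 and 67.6 CPM after 1 Gy, lower without overlap, with -0.44 ± 0.17. Fancd2 was at 37, 35.3 and 33.7 CPM and 75.1, 52.3 and 32.4 CPM, with 0.57 ± 0.26, and Exo1 was at 22.2, 24.6 and 24.9 CPM and 45.1, 34.9 and 25 CPM, with 0.54 ± 0.30. In both genes 1 Gy sample 2 was the highest, sample 3 lay between and sample 4 was within or next to the sham range. Msh6 was at 40.7, 49.1 and 62.1 CPM and 55.1, 50.3 and 86.8 CPM, with 0.37 ± 0.22, and its groups overlapped. All 4 had an adjusted p of 0.998. The 2 BL6 1 Gy libraries with Y-linked counts have no counterpart in BL6 sham, so sex, as these counts give it, and dose are partly confounded there. Fancb, which is X-linked, was at 55.5, 43 and 42.6 CPM and 40.1, 40.7 and 47.1 CPM.

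In SmoA1 tumours the repair genes lay mostly on the lower side after 1 Gy, each by a small step. Of the 35 genes 28 (80%) had a negative log2 change, against 52.7% of all genes, with a median of -0.21 against -0.02 and a range of -0.50 to 0.25. The median SE of a single gene was 0.181. In 6 genes every irradiated library was below every sham library, against 8.59% of all genes, and in 1, Rad52, every one was above, against 9.85%. The 6 were Fancm, Brca1, Xrcc2, Fanca, Polq and Rad51b.

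Fancm (chr12:65075603-65132058, plus strand) had the smallest p, at 134, 129 and 156 CPM in sham and 96.8, 106 and 104 CPM after 1 Gy. The 3 irradiated libraries were close together below the lowest sham library, with -0.45 ± 0.14 and an adjusted p of 0.108. Brca1 was at 159, 117 and 121 CPM and 86.4, 109 and 96.9 CPM, without overlap, with -0.43 ± 0.15 (adjusted p 0.183). Brca2 was at 171, 205 and 191 CPM and 122, 155 and 182 CPM, with -0.31 ± 0.14 (adjusted p 0.319), and Rad54l at 75.6, 96.7 and 110 CPM and 61.1, 61.9 and 91.1 CPM, with -0.42 ± 0.19 (adjusted p 0.327). In both of these 1 Gy sample 3 was the highest irradiated library and overlapped the sham range. Brip1 and Bard1, 2 of the genes higher in SmoA1 than in BL6, had positive values after 1 Gy in SmoA1 that did not pass. Brip1, at 86, 85.2 and 68.5 CPM in sham and 99.8, 85.9 and 92.5 CPM after 1 Gy, had 0.21 ± 0.16, and Bard1, at 69.7, 62.3 and 69.8 and 69.99, 79.6 and 67.6 CPM, had 0.11 ± 0.17.

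Several marker lists differed between the same libraries. The summed CPM of the 35 genes was 2628 to 2760 in SmoA1 sham and 2249, 2359 and 2579 in 1 Gy samples 1, 2 and 3. The 21 S phase genes summed to 1472 to 1707 in sham and to 1045, 1173 and 1269 after 1 Gy, with 20 negative and 2 called lower. The 20 cell division genes summed to 1881 to 2095 in sham and 1549 to 1821 after 1 Gy, with 18 negative and 0 called.

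Neuronal and blood cell genes lay on the other side. Mature granule neuron genes summed to 634.6 to 793.3 in sham and to 1077, 1051 and 705 after 1 Gy, Purkinje neuron genes to 495.3 to 515.1 and then 811.6, 810.9 and 517, and interneuron genes to 301.4 to 335.1 and then 576.3, 539.3 and 383.4. The numbers called higher were 1 of 11, 1 of 7 tested and 2 of 7 tested. Samples 1 and 2 were thus the highest for all 3 neuronal lists, and sample 3 was within or near the sham range for the granule and Purkinje lists. The 7 neutrophil genes summed to 62.28 to 76.54 in sham and 142.5 to 175.6 after 1 Gy, with 2 of the 3 tested called higher, and up to 2 of the 7 were at 0 in a library. Oligodendrocyte genes summed to 378.1 to 445.1 and 481.8 to 576, with 1 of 9 called higher. The part of these lists in the repair gene values was not tested.

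Of the further repair genes 1 of 93 was called after 1 Gy in SmoA1, against 2.17% of all genes. Ung was at 78.6, 90.3 and 102 CPM in sham and 34.3, 35.4 and 54.4 CPM after 1 Gy, and fell by 1.14 ± 0.21 on the log2 scale (adjusted p 0.00426). Its irradiated values were all below its sham values, and without SmoA1 1 Gy sample 2 its adjusted p was 0.0599. In BL6 Ung was at 35.1, 35.3 and 46.1 CPM and 33.4, 32.9 and 44.1 CPM, a log2 change of -0.05 that did not pass. The difference of the change between SmoA1 and BL6 was -1.08 ± 0.33, with an adjusted p of 0.120.

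**Figure D3:**
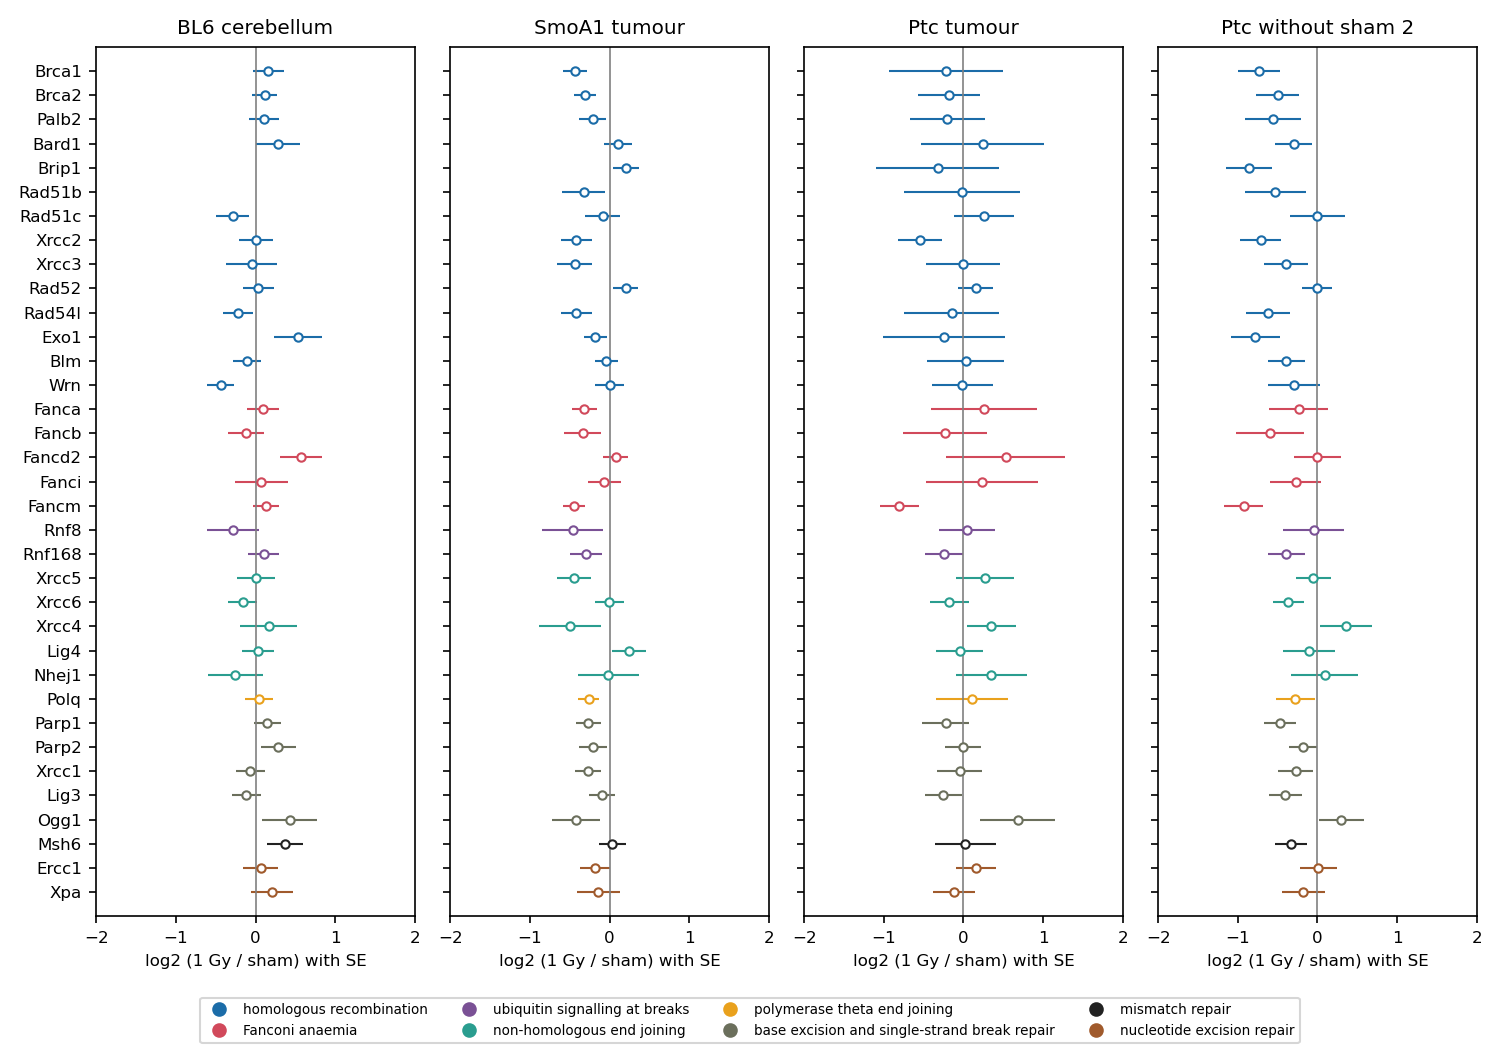
The log2 change after 1 Gy (x axis, bars ± SE) is plotted for each repair gene in BL6, in SmoA1, in Ptc and in Ptc without sham sample 2. No gene passed an adjusted p of 0.05 in any panel; 28 of 35 values are negative in SmoA1, 20 of 35 in Ptc and 30 of 35 in Ptc without that library.

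In Ptc tumours 20 of the 35 genes (57.1%) had a negative log2 change after 1 Gy, against 50% of all genes, with a median of -0.02. The libraries spread more than in SmoA1, with a median SE of 0.382. In 2 genes, Fancm and Xrcc2, every irradiated library was below every sham library, against 6.33% of all genes, and in 1, Xrcc4, every one was above, against 7.06%. Fancm was at 45.6, 34 and 39.8 CPM in sham and 27, 19.2 and 22 CPM after 1 Gy, with -0.81 ± 0.24 (adjusted p 0.685). Xrcc2 was at 20.2, 15.3 and 22.6 CPM and 14.2, 12 and 13.6 CPM, with -0.55 ± 0.28 (adjusted p 0.694). For both genes the lowest irradiated library was 1 Gy sample 2, the one with low progenitor genes. Xrcc4 was at 6.26, 6.73 and 6.35 CPM and 8.64, 8.66 and 7.30 CPM, with 0.35 ± 0.31 (adjusted p 0.791), and Ogg1, where sham sample 2 was lowest, was at 18.1, 5.22 and 13.1 CPM and 16.7, 21.6 and 20.2 CPM, with 0.68 ± 0.47 (adjusted p 0.746).

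The Ptc values depend on sham sample 2, the library with the markers of mature cerebellum. Without it 30 of the 35 genes (85.7%) had a negative change, against 47.5% of all genes, and the median was -0.301 against 0.0316. Still 0 were called, against 0% of all genes, and 5 stood at an unadjusted p under 0.05, against 5.46% of all genes. In 13 genes (37.1%) every irradiated library was then below both sham libraries, against 12.4% of all genes. By pathway 13 of the 14 genes of homologous recombination were negative with a median of -0.517, as were all 5 Fanconi genes with -0.272, 4 of 5 of base excision with -0.273 and 3 of 5 of non-homologous end joining with -0.0513. The lowest values were those of Fancm at -0.93 ± 0.24, Brip1 at -0.86 ± 0.29, Exo1 at -0.78 ± 0.31, Brca1 at -0.74 ± 0.26 and Xrcc2 at -0.71 ± 0.26, each with an adjusted p of 0.776. Leaving out the library with the lowest repair gene levels raises the sham mean by construction. Without Ptc sham sample 1 the order turned, with 9 of 35 negative and a median of 0.28. The share over all genes is not given for that setting, so whether the other genes turned with them is not shown.

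The repair genes differed widely in how low they were in Ptc sham sample 2. The ratio of its level to the mean of sham samples 1 and 3 had a median of 0.442 over the 35 genes and of 1.04 over all genes tested, and 34 of the 35 ratios were below 1. The lowest were Bard1 at 0.0943, Brip1 at 0.1, Exo1 at 0.103, Fancd2 at 0.11, Brca1 at 0.122, Rad51b at 0.138, Fanci at 0.139 and Fanca at 0.174. These are the same 8 genes that had the smallest p in SmoA1 sham against BL6 sham, a comparison of other libraries. The 13 genes called there had a median ratio of 0.139 and a range of 0.0943 to 0.715, and the 22 others 0.581 and 0.199 to 1.07. The ratio is that of 1 library chosen after its values were seen, so it is a description without a test.

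Exo1 shows the low end, at 58.1, 5.18 and 42.1 CPM in Ptc sham samples 1, 2 and 3, and Fancd2, at 63.3, 5.74 and 41 CPM, has the same shape. Both were far lower in sample 2 than in the others, and in that sample Mki67, an antigen of dividing cells, was at 69.5 CPM against 844 and 512. At the other end Xrcc4 was at 6.26, 6.73 and 6.35 CPM, Lig4 at 16.8, 16.1 and 18 CPM and Xpa at 15.2, 13.9 and 14.5 CPM. These genes of end joining and nucleotide excision were level across the 3 libraries.

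**Figure D4:**
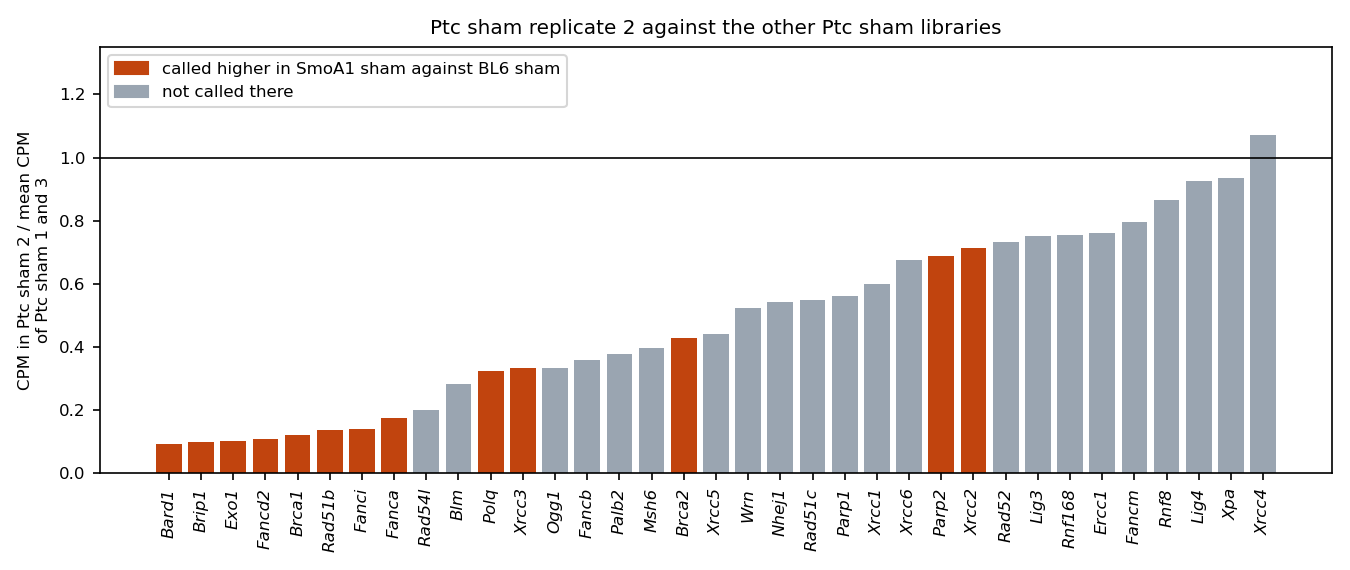
Bars give the CPM in Ptc sham sample 2 divided by the mean of Ptc sham samples 1 and 3 (y axis, linear from 0) for each repair gene (x axis), in orange-red where the gene was called higher in SmoA1 sham than in BL6 sham. The 8 shortest bars, 0.0943 to 0.174, are all orange-red, and only Xrcc4 exceeds 1, at 1.07.

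Fancm and Xrcc2 were the 2 repair genes that were lower without overlap after 1 Gy in both tumour models, which share no samples. Over all 16327 genes tested in both, 140 (0.857%) did so. Neither change passed in either model by edgeR, and DESeq2 gave Fancm an adjusted p of 0.0968 in Ptc, within a range of 0.0968 to 0.92 over the alternatives. Xrcc2 (chr5:25689812-25705825, minus strand) was at 89, 69.95 and 60.4 CPM in SmoA1 sham and 52.1, 51.8 and 60.2 CPM after 1 Gy, where sample 3 came just below the lowest sham library, with -0.42 ± 0.19 (adjusted p 0.335). In BL6 neither gene was separated by dose. Fancm was at 88.7, 140 and 110 CPM in sham and 112, 139 and 125 CPM after 1 Gy there, and Xrcc2 at 44.4, 49.1 and 51.5 CPM and 43.4, 54.2 and 48.5 CPM. Of the exonic bases of Fancm 7.07% overlap other genes, and of those of Xrcc2 0%. In Ptc sham sample 2 both genes were among the less reduced, with ratios of 0.796 and 0.715.

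**Figure D5:**
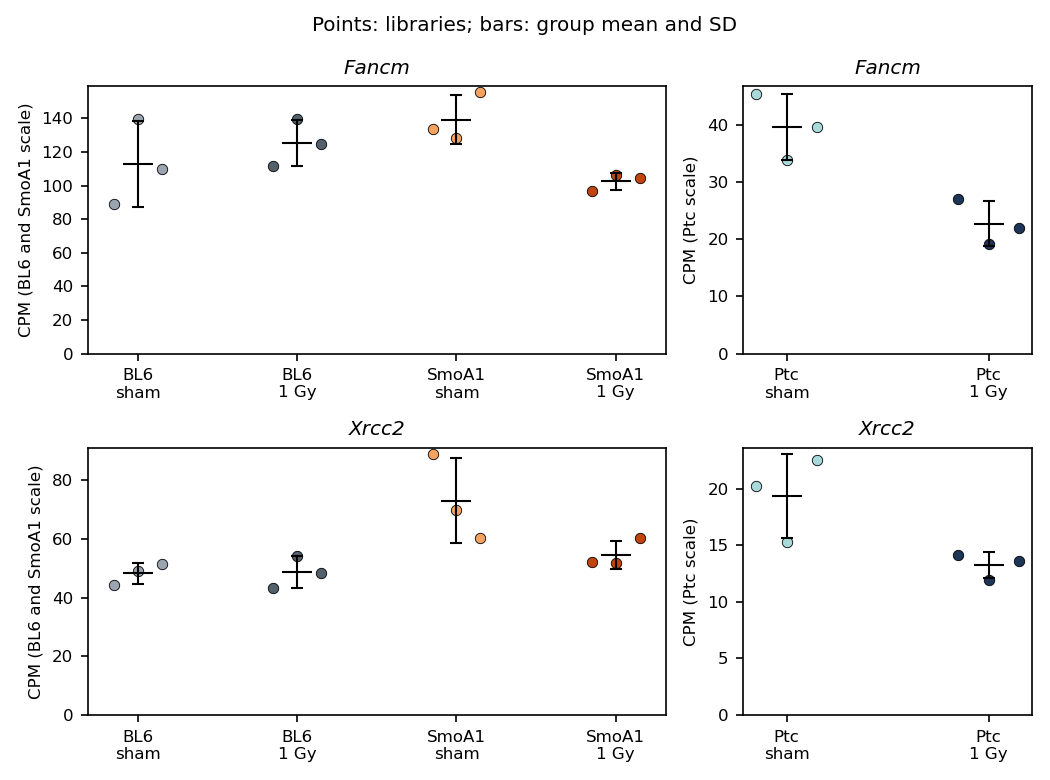
The level in CPM (y axis) of Fancm and Xrcc2 is plotted by library in the 6 groups, with BL6 and SmoA1 on one scale and Ptc on another. In SmoA1 and in Ptc the 3 irradiated libraries lie below the 3 sham libraries, and in BL6 the groups overlap.

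Whether the change after 1 Gy differed between tissues was tested as an interaction over 12 libraries. Between SmoA1 and BL6 0 of 35 genes were called, against 1.06% of all genes, and 3 stood at an unadjusted p under 0.05, against 11.2%. DESeq2 called 0 as well, against 97 higher and 4 lower of all 18188 genes. The change was more negative in SmoA1 for 25 of 35, with a median difference of -0.30 against 0.025 over all genes. Fancm differed by -0.57 ± 0.22 (adjusted p 0.256), Brca1 by -0.58 ± 0.26 (adjusted p 0.369), Exo1 by -0.70 ± 0.32 (adjusted p 0.389) and Brca2 by -0.42 ± 0.22 (adjusted p 0.502). For Exo1 the difference joins a higher mean in irradiated BL6 with a lower one in irradiated SmoA1.

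Between Ptc and SmoA1 0 of 35 were called by edgeR or by DESeq2, against 0.00365% of all genes by edgeR, and 0 stood at an unadjusted p under 0.05, against 8.24%. DESeq2 called 29 higher and 59 lower of all 27377 genes. The difference was negative for 4 of 35 (11.4%), against 39.4% of all genes, with a median of 0.28 against 0.193. These values include Ptc sham sample 2. Without it the change within Ptc was negative for 30 of 35, with a median of -0.301, next to -0.21 within SmoA1. Ogg1 differed by 1.25 ± 0.61 (adjusted p 0.618), Xrcc4 by 1.02 ± 0.51 (adjusted p 0.621), Xrcc5 by 0.86 ± 0.47 (adjusted p 0.643) and Ercc1 by 0.49 ± 0.33 (adjusted p 0.695). Fancm, low after 1 Gy in both models, differed by -0.19 ± 0.31, less than its SE. Library type and model cannot be told apart in this comparison.

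Genes that p53 switches on after DNA damage were read in the same libraries. Of 10 listed targets, 1 was called higher in BL6 (Eda2r, at 1.66 ± 0.22, adjusted p 0.000269), 1 in SmoA1 (Plk2, at 0.90 ± 0.20, adjusted p 0.016) and 0 in Ptc. The shares called in either direction over all genes were 0.0126%, 2.17% and 0%. In BL6 6 targets had a positive change and 4 a negative one, with a median of 0.14. In SmoA1 5 were positive and 5 negative, with a median of 0.10. There Eda2r was at -0.06 ± 0.17 and Cdkn1a at -0.40 ± 0.21, and neither passed. The change of Eda2r, alone of the 10, was called lower in SmoA1 than in BL6. It differed by -1.70 ± 0.29 (edgeR adjusted p 0.00265), against 1.06% of all genes called. In sham mice Eda2r and Cdkn1a alone were called higher in SmoA1 than in BL6, at 1.64 ± 0.22 and 0.99 ± 0.23, against 7.07% of all genes. All 10 had a positive change in Ptc, with a median of 1.22, and their sum was 487.7 to 591.1 CPM in sham and 1116 to 1823 CPM after 1 Gy.

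Levels of different genes can be set side by side only per length and only in the Ptc libraries, since most uniquely mapped reads of the others lay over no exon. Per kb of exon, Parp1 had the highest level in Ptc sham, at 36.0 ± 12.2 CPM (SD, n = 3), followed by Msh6 at 21.8 ± 9.90, Rnf168 at 15.2 ± 2.42, Xrcc5 at 15 ± 6.70 and Parp2 at 13.7 ± 2.81. The SD ranges of the last 4 overlap, but that of Msh6 is the widest and its mean lies above the SD ranges of the others. The lowest were Rnf8 at 0.632 ± 0.0998, Rad51b at 1.19 ± 0.828, Xrcc4 at 1.53 ± 0.0598, Palb2 at 1.70 ± 0.854 and Fancb at 1.93 ± 0.909. Length here counts every annotated exonic base, 11703 for Rnf8. Of these 13.2% overlap another gene, so its level per kb is uncertain. After 1 Gy Parp1 was again first, at 30.8 ± 0.892, and Rnf8 last, at 0.651. Over Ptc sham samples 1 and 3 alone Parp1 and Msh6 were again first, at means of 42.2 and 27.3, but the order turned for Xrcc5 at 18.4 and Rnf168 at 16.6, and for Rad51b at 1.66 and Xrcc4 at 1.5. Rnf8 was again last, at 0.662.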

How the data were processed

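The authors deposited raw read counts per gene for each library or part of a library, with unmapped, multimapping and unassigned reads listed apart, and those are the unit used. The submitters' processing notes name mm10 and Cell Ranger 5.0.1, which writes another layout than these files have. No source used here gives the aligner. Per the labels, total RNA was extracted with RNeasy and depleted of ribosomal RNA. Symbols and positions came from GENCODE M21 (GRCm38), which matched 53274 of 53379 identifiers.

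The 54 files make 18 libraries. The 4 files that carry the same BL6 or SmoA1 sample number, although titled as biological replicates, varied no more than draws from 1 library (variance to mean ratio 0.857 to 0.938) and were summed. The unstranded column was used. Genes were filtered with filterByExpr, scaled by TMM and tested per pair of groups with the quasi-likelihood test of edgeR 4.0.16 (R 4.3.3), with Benjamini-Hochberg adjustment over all genes tested and a threshold of 0.05; interactions were fitted over 12 libraries. All errors of log2 values are SE. The alternatives are named with the dependence of the results, DESeq2 1.42.0 among them.

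The rule for the members uses gene names only, but the members, the further repair genes, the markers and the motifs were chosen with earlier results of these data known. Every called member is named. Values by library are given for the 10 called members with the smallest p in SmoA1 sham against BL6 sham, the best of each pathway without one there, and the first 4 to 8 by p in other comparisons. Palb2, Rad51c, Parp1, Rnf8, Lig4, Xpa, and the repeats of Xrcc2, Xrcc3, Fancb, Brip1, Bard1 and Brca1 elsewhere, were added after their values were seen. Figures used matplotlib 3.10.9.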

Additional observations from a re-analysis of the deposited data

How the results depend on the processing

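Of 773 values of single genes under the alternatives, 729 kept their direction and side of the threshold, 38 no longer passed, 3 newly passed and 3 changed sign. The sign changes were Rnf168 in SmoA1 sham against BL6 sham with the first file of each sample (-0.11), Wrn after 1 Gy in BL6 with that file (0.15) and Msh6 after 1 Gy in BL6 with the sample number as a block (-0.048). Of 27 calls of single genes, including those of further repair genes, 16 kept an adjusted p under 0.05 under every alternative in which the gene was tested. The 2-fold threshold was not applied to these single-gene values. The count of 13 repair genes higher in SmoA1 sham was 8 of 20 tested on the strand column with more counts, 7 at 2-fold or more, 4 of 22 tested with the first file and 10 to 13 with 1 library left out. The count of 6 after 1 Gy was 1 of 21 tested with the first file, and 5 to 6 with 1 library left out. DESeq2 gave 9 and 4, without Polq, Parp2, Xrcc3 and Xrcc2 in sham. With the sample number as a replicate block the counts were 12 and 5, and 11 of the 13 kept their call; Brca2 and Parp2 lost it, at 0.121 and 0.362, and Msh6 gained it, at 0.0262. In BL6 and SmoA1 the deviations of same-numbered samples correlated at -0.041 to 0.076, within the -0.104 to 0.111 of differently numbered ones. In Ptc they correlated at -0.00116 to 0.19, against -0.207 to 0.15 for differently numbered ones, so pairing there is less clear. The numbers were not taken as pairs. All 5 tests involving a change after 1 Gy called 0 repair genes under each alternative run. The call of Ung after 1 Gy in SmoA1 was lost with the first file (0.323). Over all genes, DESeq2 called 211 higher and 110 lower after 1 Gy in Ptc, where edgeR called 0. It called 681 higher and 1046 lower in SmoA1 sham against BL6 sham, where edgeR called 1161 and 1544, and 496 and 206 after 1 Gy, where edgeR called 736 and 439. With no low-count filter edgeR called 1908 and 2514 in sham, 1460 and 775 after 1 Gy, and 828 and 141 for the change after 1 Gy in SmoA1, against 331 and 32. With the first file these were 153 and 222, 48 and 14, and 0 and 0. Where genes or counts were removed, fewer were tested; otherwise the cause was not tested. The BL6 and SmoA1 libraries were shallower, and the median SE of the change after 1 Gy was larger in Ptc, at 0.382 against 0.181 in SmoA1. The part of depth, library type and spread in the results was not tested.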
